A study of Mus musculus with 6 samples.

Results

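The myosin light chain kinase family of the mouse has 4 genes, Mylk, Mylk2, Mylk3 and Mylk4, and all 4 were found by symbol among the 52636 genes of a bulk RNA-seq count table of the thoracic aorta. The table held 6 libraries from 12-week-old male mice. The 4 WT libraries came from untreated C57BL/6J mice. The 2 KO libraries came from Tgfbr1/2iSMCKO mice, in which both alleles of Tgfbr1 and Tgfbr2 were flanked by loxP sites and which also carried the mT/mG reporter and a tamoxifen-inducible Cre. The Cre was driven by Myh11, a gene of smooth muscle cells (SMCs), from a transgene on the Y chromosome. Tamoxifen was injected i.p. in a daily dose of 2 mg on 5 days, when these mice were 11 weeks old. The WT mice carried none of these alleles and received no tamoxifen, so that receptor deletion, transgenes, breeding and tamoxifen cannot be told apart here. The question was how loss of TGF-β signalling in SMCs altered these transcripts in the adult aorta. The study gives as many mice as there are libraries in each group, so that a library was taken as a single animal, and p-values measure the spread between libraries.

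Myosin light chain kinases are switched on by calcium-bound calmodulin and phosphorylate the regulatory light chain of myosin, the step that starts contraction in smooth muscle and tunes it in striated muscle. A phosphatase removes the phosphate. Mylk encodes the smooth muscle and non-muscle kinase and also telokin, a short protein from the 3′ end of the same gene. Mylk2 is known as the skeletal muscle kinase and Mylk3 as the cardiac kinase, whereas Mylk4 is the least studied member.

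In GENCODE M21 on GRCm38, Mylk (ENSMUSG00000022836.10) lay at chr16:34745210-35002420 on the + strand, with 8 transcripts and 11263 exonic bases. Mylk2 (ENSMUSG00000027470.9) lay at chr2:152911352-152923068 on the + strand, with 1 transcript and 2951 exonic bases. Mylk3 (ENSMUSG00000031698.14) lay at chr8:85324303-85386345 on the - strand, with 5 transcripts and 4283 exonic bases. Mylk4 (ENSMUSG00000044951.14) lay at chr13:32700834-32783954 on the - strand, with 4 transcripts and 7689 exonic bases. The longest coding sequence was 5850 bases in Mylk, 1839 in Mylk2, 2385 in Mylk3 and 1161 in Mylk4, and the shortest coding sequence of Mylk, 477 bases, was counted together with the long one. The 60 bases of coding sequence below, from the part that encodes the catalytic domain, are shown because of all such stretches of Mylk4 this one was most alike in the other 3 genes, and capitals mark the 39 bases that were the same in all 4. They join 2 neighbouring exons in each gene, between chr16:34979258-34986462 for Mylk, chr2:152919416-152920307 for Mylk2, chr8:85328662-85336405 for Mylk3 and chr13:32715990-32716693 for Mylk4, and are written 5′ to 3′ on the strand of the gene.
Mylk: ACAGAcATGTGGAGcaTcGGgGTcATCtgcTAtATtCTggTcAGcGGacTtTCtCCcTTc
Mylk2: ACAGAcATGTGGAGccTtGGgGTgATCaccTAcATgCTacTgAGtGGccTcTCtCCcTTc
Mylk3: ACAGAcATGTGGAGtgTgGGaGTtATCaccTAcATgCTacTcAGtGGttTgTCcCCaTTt
Mylk4: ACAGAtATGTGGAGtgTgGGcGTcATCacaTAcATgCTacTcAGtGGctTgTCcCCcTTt
Over these 60 bases, 54 were the same in Mylk3 and Mylk4, 48 in Mylk2 and Mylk4, and 42 in Mylk and Mylk4. The best local alignments of the coding sequences ranged from 71.4% identity (Mylk and Mylk4) to 77.2% (Mylk3 and Mylk4). The longest run of identical bases between any pair was 21 (Mylk2 and Mylk4), and no stretch of 50 exonic bases was shared between members. The counts of 1 member were therefore distinct from those of another at that length.

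Across the family, Mylk2 and Mylk4 fell in the KO aortas 10.9-fold and 7.19-fold in their means, Mylk, the most abundant member, did not pass the test, and Mylk3 was near 0 in WT and high in 1 of the 2 KO libraries. In DESeq2, which was fitted to all genes, 17070 genes had a Benjamini-Hochberg adjusted p-value. A gene was called when this value was under 0.05 and the change exceeded 2-fold. By that rule 2 of the 4 members were called, both lower, whereas 5.64% of all tested genes were called, 3.54% higher and 2.1% lower. The groups did not overlap for 3 of the 4 members, against 34.3% of all tested genes (17.9% with KO higher and 16.4% with KO lower). The family was chosen with earlier results of these data known, so these counts only describe it. The median log2 fold change of all tested genes was 0.01.

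**Figure D1:**
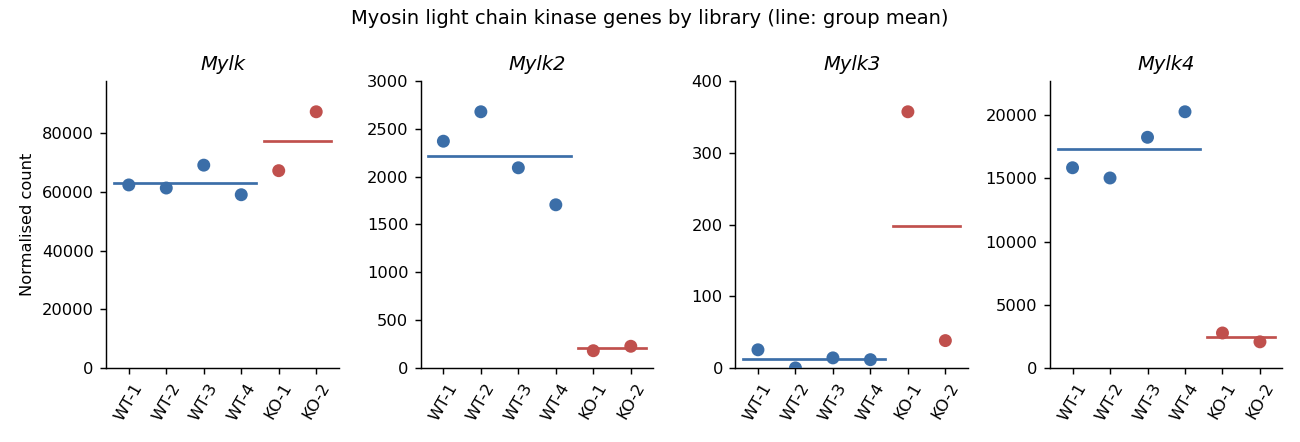
Normalised counts of the 4 kinase genes in each library, with a separate linear axis from 0 for each gene, WT libraries in blue, KO libraries in red and a line at the group mean. For Mylk2 and Mylk4 both KO libraries lie far below all 4 WT libraries, for Mylk the groups overlap, and for Mylk3 KO-1 stands alone at 357.4.

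Mylk, the smooth muscle kinase, had normalised counts (estimated counts divided by the DESeq2 size factor of the library) of 62410, 61360, 69160 and 59070 in the WT libraries, in the order of their numbers, against 67280 (KO-1) and 87370 (KO-2). KO-1 lay within the WT range and KO-2 above it. The means were 63000 ± 4341 (SD, n = 4) and 77320 ± 14210 (SD, n = 2). The log2 fold change of KO against WT was 0.30 (standard error 0.17, 95% interval -0.04 to 0.63, DESeq2 adjusted p-value 0.308). Without KO-1 it was 0.47, and without KO-2 it was 0.11. The size of the change thus depended on which KO library was used, but neither value exceeded 2-fold, so Mylk was not called in either fit. In WT, Mylk ranked 26th of all genes by normalised count, with no correction for length.

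Mylk4 had normalised counts of 15840, 15030, 18250 and 20270 in WT, against 2763 (KO-1) and 2063 (KO-2). Every WT library lay far above the higher KO library. The mean fell from 17350 ± 2380 (SD, n = 4) to 2413 ± 495.1 (SD, n = 2), 7.19-fold lower, with a log2 fold change of -2.85 (standard error 0.20, 95% interval -3.23 to -2.46, DESeq2 adjusted p-value 3.86e-43). Over 14 alternative fits the log2 fold change lay between -3.07 and -2.64, and the highest adjusted p-value was 0.00123. In WT, Mylk4 ranked 144th of all genes by normalised count.

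Mylk2, known from skeletal muscle, had normalised counts of 2371, 2679, 2093 and 1706 in WT, against 179.8 (KO-1) and 226.2 (KO-2). The KO libraries lay close to each other and well under the lowest WT library. The mean fell from 2212 ± 413.7 (SD, n = 4) to 203 ± 32.76 (SD, n = 2), 10.9-fold lower, with a log2 fold change of -3.45 (standard error 0.23, 95% interval -3.90 to -3.0, DESeq2 adjusted p-value 1.58e-46). The 14 alternative fits gave -3.64 to -3.29, with a highest adjusted p-value of 0.00123. Among the 358 genes called lower, Mylk2 and Mylk4 stood 2nd and 3rd by adjusted p-value. By log2 fold change they stood 52nd and 64th, and among the 93 called lower with a mean normalised count over 1000 they stood 2nd and 4th.

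Mylk3, the cardiac kinase, had raw counts of 23, 0, 14 and 11 in WT, against 471 (KO-1) and 31 (KO-2). Its normalised counts were 25.26, 0, 13.98 and 11.49 in WT, and 357.4 and 38.1 in KO. Both KO libraries lay above all WT libraries, but they differed from each other far more than the WT libraries did, and a count of 0 in WT-2 allowed up to 2.69 normalised counts (3 raw counts, counting error only). The log2 fold change was 3.97 (standard error 1.67, 95% interval 0.70 to 7.23) and did not pass the DESeq2 test (adjusted p-value 0.115). Without KO-1 it was 1.60 with an adjusted p-value of 0.566. Without WT-2, the library at 0, it was 3.55 with an adjusted p-value of 0.00054, and the 14 alternatives ranged from 1.60 to 4.83, 3 of them past the threshold.

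**Figure D2:**
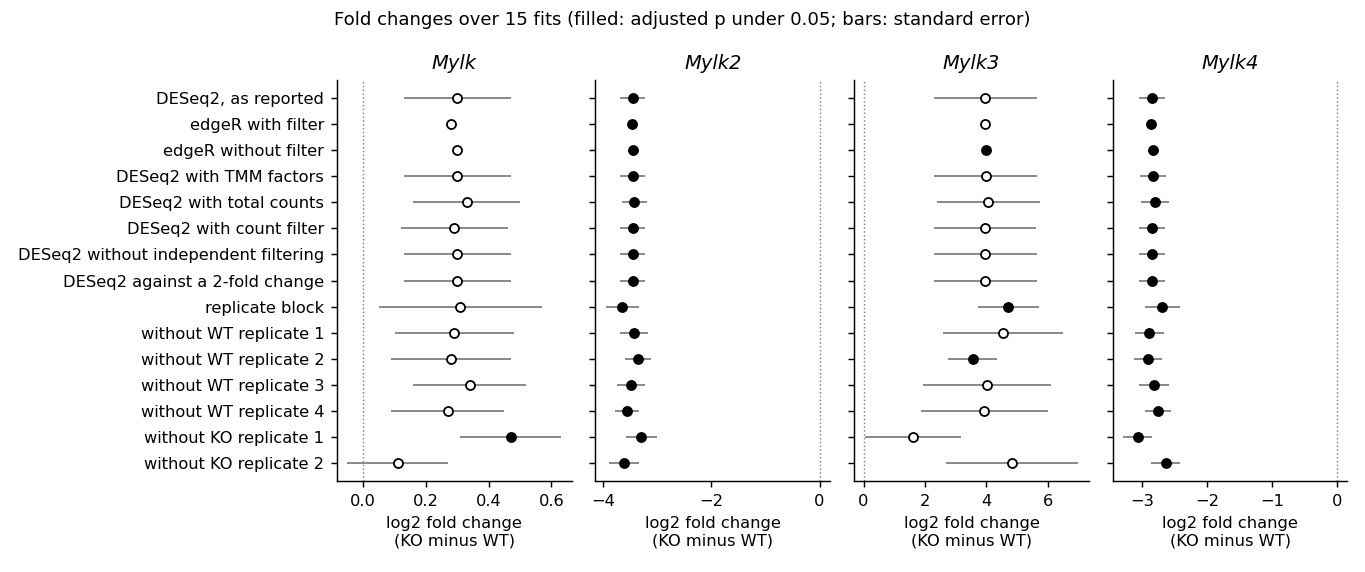
Log2 fold changes of KO against WT for the 4 kinase genes (horizontal axes, scaled separately) in the reported fit and the 14 alternative fits (rows). Filled points have an adjusted p-value under 0.05, bars are standard errors, and the edgeR fits have no bar. Mylk2 and Mylk4 are filled in every row, Mylk in 1 row and Mylk3 in 3.

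Levels of different genes were compared per kilobase of exon. On that scale the WT order was Mylk at 5593 ± 385.4, Mylk4 at 2256 ± 309.5, Mylk2 at 749.7 ± 140.2 and Mylk3 at 2.961 ± 2.42 normalised counts per kilobase (SD, n = 4), and no neighbours in that order overlapped over the WT libraries. In the KO libraries the order of the first 2 was kept, with Mylk at 6865 ± 1261 and Mylk4 at 313.8 ± 64.39 (SD, n = 2). Mylk2 (60.94 and 76.64) and Mylk3 (83.44 and 8.897) overlapped there, so their order was not resolved. As shares of the family's summed counts per kilobase, Mylk took 65.0 ± 2.05% in WT and 93.9 ± 2.41% in KO. Mylk4 took 26.2 ± 3.41% and 4.43 ± 1.58%, Mylk2 took 8.75 ± 1.84% and 0.943 ± 0.00286%, and Mylk3 took 0.0343 ± 0.0287% and 0.699 ± 0.833%. Nearly all of the family's transcripts in the KO libraries were thus those of Mylk, counting all forms of that gene together.

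**Figure D3:**
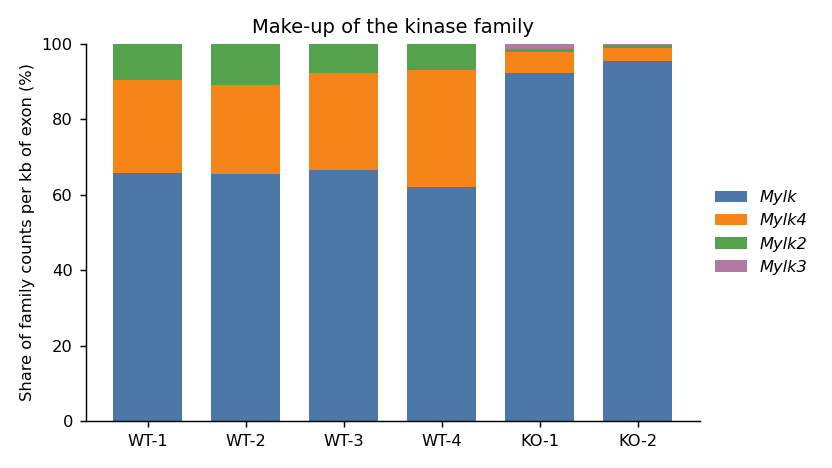
Share of the family's summed normalised counts per kilobase of exon (vertical axis, percent) taken by each kinase gene in each library. Mylk makes up 62.0% to 66.6% in the WT libraries and 92.2% and 95.6% in the KO libraries, and the Mylk4 and Mylk2 segments shrink in both KO libraries.

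The summed level of the 4 genes was 8410, 8310, 9227 and 8461 normalised counts per kilobase in WT, against 6477 (KO-1) and 8111 (KO-2). Both KO libraries lay under all WT libraries. The difference on the log2 scale was -0.25 and shrank to -0.08 without KO-1. In an exact two-sided permutation test over libraries it gave p = 0.133, which is the smallest p that 4 against 2 libraries allow. With the length of the longest transcript the difference was -0.20 and the groups overlapped (exact permutation p = 0.267). The log2 ratio of Mylk4 to Mylk within a library, which does not depend on how libraries are scaled, was -1.98, -2.03, -1.92 and -1.54 in WT and -4.61 and -5.40 in KO, a difference of -3.14 (exact permutation p = 0.133). The log2 ratio of Mylk2 to Mylk was -4.72, -4.52, -5.05 and -5.11 in WT and -8.54 and -8.59 in KO, a difference of -3.72 (exact permutation p = 0.133). The adjusted value over these 3 exact tests was also 0.133. The log2 ratio of Mylk4 to Mylk2, the members that fell, was 2.49 to 3.57 in WT and 3.94 and 3.19 in KO, with no test.

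The labelled tissue was checked against cell type markers. The 8 SMC markers, such as Acta2 and Myh11, summed to 910500 to 1069000 normalised counts in WT and to 870600 and 1024000 in KO. None of them passed the DESeq2 adjusted p-value, whereas 4 had an unadjusted p-value under 0.05 (Cnn1, Tagln and Smtn, lower, and Myh11, higher), and edgeR also called none. Per 1000 counts of these markers, Mylk4 stood at 17.0, 16.1, 17.1 and 22.3 in WT and 3.17 and 2.01 in KO, and Mylk2 at 2.55, 2.87, 1.96 and 1.87 in WT and 0.207 and 0.221 in KO. The lower levels of both genes were thus as large relative to the SMC markers. Mylk stood at 64.7 to 67.1 per 1000 in WT and at 77.3 and 85.3 in KO. In whole tissue, fewer cells of a type and less RNA per cell cannot be told apart.

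Skeletal muscle markers were nearly absent although Mylk2 is known from that tissue. The 12 markers summed to 218.2 to 293.3 normalised counts in WT and to 726.2 and 253.2 in KO, less than the Mylk2 count of every WT library. Of these, the myosin heavy chains Myh1 and Myh2 and the calcium buffer Pvalb were at 0 in all 6 libraries, and Myh4 and Atp2a1 had counts in 1 WT library each. The high sum in KO-1 came from Ckm, muscle creatine kinase, at 608.5. None of the 7 markers tested passed the DESeq2 adjusted p-value, 1 (Ckm) had an unadjusted p-value under 0.05, and edgeR called none. Most of these markers were at or near 0 already in WT, so the list could show little of a fall beside that of Mylk2. In its bulk RNA-seq of isolated SMCs, the study reported that neither Mylk2 nor Mylk3 was detected. It reported Mylk4 as lower and Mylk as higher there, and also by quantitative RT-PCR of whole aortas after tamoxifen against untreated ones. Which cells of the aorta held the Mylk2 counts was not tested.

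Mylk3 and most cardiac markers were highest in KO-1, whereas in KO-2 the markers moved in both directions. The 11 markers summed to 3042 to 4331 normalised counts in WT, of which Ryr2, a calcium release channel that smooth muscle also uses, made up 2291 to 2667. They summed to 24650 in KO-1 and 4499 in KO-2. In KO-1, the atrial genes Myh6 and Myl7 reached 10310 and 1851, against at most 538.8 and 159.3 in WT. In KO-2 they stood at 113.1 and 87.27, within the WT range. Myl2 and Myh7, which mark ventricular muscle, reached 377.4 and 194.2 in KO-2, against at most 0 and 15.38 in WT. Also in KO-2, Tnnt2 (1975) and Tnni3 (264.3) lay above all WT libraries, and Myl4 (98.33) and Ryr2 (1368) lay under them. Of the 11 markers, 6 rose and none fell past the adjusted p-value in DESeq2, against 10.4% of all genes past it and 5.71% higher. In edgeR 4 passed the adjusted p-value with a filter and 5 without. Per 1000 cardiac marker counts, Mylk3 stood at 5.83, 0, 3.93 and 2.76 in WT and at 14.5 and 8.47 in KO. With Ryr2 left out of the sum, a choice made after its share was seen, the values were 14.1, 0, 11.1 and 7.72 in WT and 16.6 and 12.2 in KO, and KO-2 then lay within the WT range. The part of cardiac tissue in the Mylk3 counts was not tested.

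**Figure D4:**
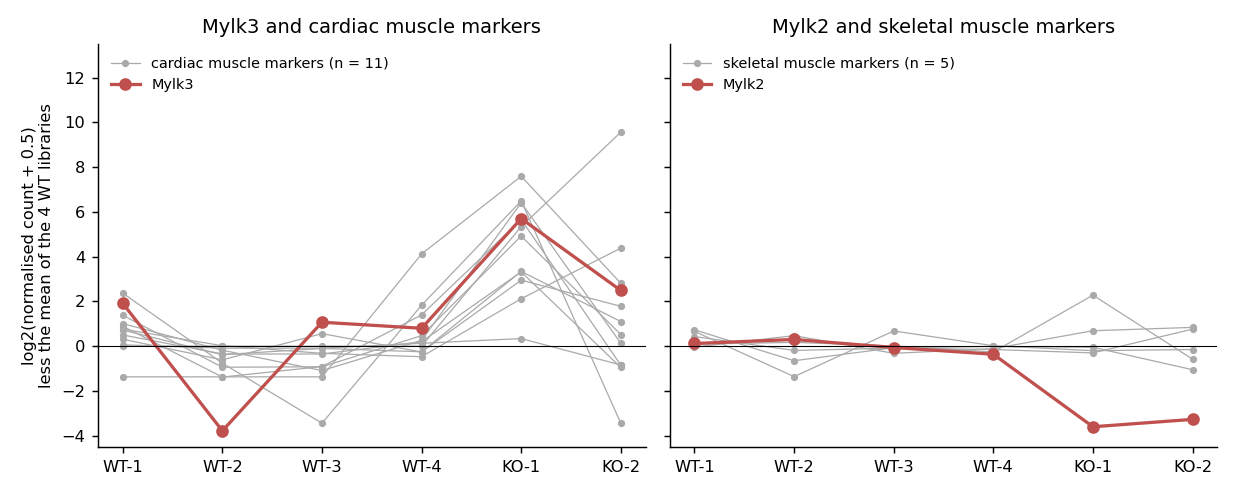
Log2(normalised count + 0.5) less the WT mean for Mylk3 with the 11 cardiac markers (left) and for Mylk2 with the 5 skeletal muscle markers that had a mean normalised count of at least 10 (right), by library. Lines only join the values of 1 gene. Mylk3 and most cardiac markers peak in KO-1, whereas Mylk2 lies more than 3 log2 units under its WT mean in both KO libraries with no skeletal muscle marker near it.

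Markers of other tissues also differed and are given beside the kinase results. Red blood cell markers summed to 859.3 to 5990 in WT and to 11080 and 61680 in KO, and brown adipocyte markers to 345.6 to 537.1 in WT and to 555.4 and 10920 in KO. White adipocyte markers reached 6755 in KO-2 against at most 997.7 in WT, and mesothelial markers 757.3 and 1957 in KO against at most 391.5. Fibroblast markers summed to 108600 to 121900 in WT and to 137300 and 162400 in KO, endothelial markers to 10930 to 19850 and to 28960 and 28120, and macrophage markers to 3418 to 4356 and to 6688 and 6599. Mitochondrial genes took 2.62% to 4.44% of counts in WT, 3.38% in KO-1 and 11.7% in KO-2, and total counts ran from 19650983 to 28860598. With 1 KO library left out, the log2 fold changes nearest to 0 were -3.29 for Mylk2 and -2.64 for Mylk4. The deleted genes gave no check of the labels: Tgfbr1 (log2 fold change 0.20, adjusted p-value 0.63) and Tgfbr2 (-0.09, adjusted p-value 0.838) overlapped between groups, and their counts cover the whole gene, not the exons between the loxP sites.

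The genes around light chain phosphorylation were described through 7 lists with 54 genes, none of them a family member. Of the 50 tested, 11 passed the DESeq2 adjusted p-value, 6 higher and 5 lower, or 22% against 10.4% of all tested genes (5.71% higher and 4.69% lower). Their median log2 fold change was 0.06. Of the 11, 7 exceeded 2-fold, 6 higher and 1 lower, where 5.64% of all tested genes were called, 3.54% higher and 2.1% lower. Among the 11, 3 (Myl2, Myl7 and Ttn) are sarcomere genes of striated muscle. The counts for single lists below are small, and the same 10.4% of all tested genes stands beside each of them. With edgeR 6 of the 11 passed with a filter and 6 without, but not the same genes. Arhgef1 and Camk1 passed only with the filter, and Myl2 and Ttn only without it.

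Among the substrates, Myl9, the regulatory light chain of smooth muscle, had normalised counts of 100800, 45540, 51480 and 84270 in WT and 96750 and 56130 in KO. Its groups overlapped (log2 fold change 0.12, standard error 0.32, adjusted p-value 0.885). Myl2, the ventricular light chain, was at 0 in all WT libraries and at 19.73 and 377.4 in KO, at least 65.5-fold higher when each WT library is set to 3 counts (adjusted p-value 0.0379). From KO-1 alone the bound is 6.51-fold. Myl7, the atrial one, rose by a log2 fold change of 3.66 (adjusted p-value 0.0487) with overlapping groups. Myl7 missed the threshold without KO-1 (log2 fold change 0.19) and without each of WT-2, WT-3 and WT-4, and Myl2 missed it without KO-2. None of the 4 calmodulin genes tested passed in DESeq2, with none under an unadjusted p-value of 0.05, and edgeR also called none.

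Of the 12 other kinases of the light chain tested, 2 rose, 1 fell and 9 did not pass, against 10.4% of all tested genes past the threshold. Dapk1, a calmodulin-regulated death-associated kinase, had normalised counts of 197.7, 366.4, 370.5 and 437.5 in WT and 1263 and 919.4 in KO. It rose by a log2 fold change of 1.67 (standard error 0.30, adjusted p-value 2.09e-06). Its paralogue Dapk2 had 648.1, 633.1, 576.2 and 696.4 in WT and 361.2 and 207.7 in KO, and fell by 1.16 on the log2 scale (adjusted p-value 0.000177). Both passed in 13 of 14 alternatives. Pak1, a kinase activated by Rac and Cdc42, rose by a log2 fold change of 1.24 (adjusted p-value 0.00197). Dapk3, another member of that family, had a log2 fold change of -0.60 and missed the threshold (adjusted p-value 0.0538). Rock1 (0.09, adjusted p-value 0.852) and Rock2 (0.29, adjusted p-value 0.355) did not pass.

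On the phosphatase side, 1 of 7 genes tested passed, against 10.4% of all tested genes. Ppp1r14a, which encodes the phosphatase inhibitor CPI-17, had normalised counts of 6560, 5787, 5460 and 4356 in WT and 3157 and 4179 in KO, and fell by 0.60 on the log2 scale (adjusted p-value 0.0463, past in 4 of 14 alternatives). Ppp1r12a, the targeting subunit of the phosphatase, had a log2 fold change of 0.22 (adjusted p-value 0.478). Of the 6 genes for guanine nucleotide exchange factors, a small GTPase and the cGMP kinase, Arhgef1, an exchange factor, fell by 0.81 on the log2 scale (adjusted p-value 0.00258) and the other 5 did not pass.

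Of the 10 calmodulin-dependent kinases tested, Camk1 (-0.62, adjusted p-value 0.00459) and Camkk1 (-0.89, adjusted p-value 0.0307), a kinase that activates Camk1 and Camk4, fell. Camk4 rose by a log2 fold change of 1.07 (adjusted p-value 0.00125), from 146.1 to 221.4 normalised counts in WT to 355.9 and 390.9 in KO. Among 5 titin-like kinases, only Ttn, the giant sarcomere protein, passed (log2 fold change 4.91, adjusted p-value 0.0163). It stood at 3588 in KO-1 and at 72.52 in KO-2, the latter within the WT range of 14.37 to 125.3, and without KO-1 its log2 fold change was 0.25. Ttn also missed the threshold without each of WT-1, WT-2 and WT-3. With 1 library left out, Pak1 no longer passed without KO-1 and Arhgef1 without KO-2, and Camkk1, like Ppp1r14a, passed in 4 of the 14 alternatives. None of the 11 passing genes had a log2 fold change as low as those of Mylk2 and Mylk4.

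**Figure D5:**
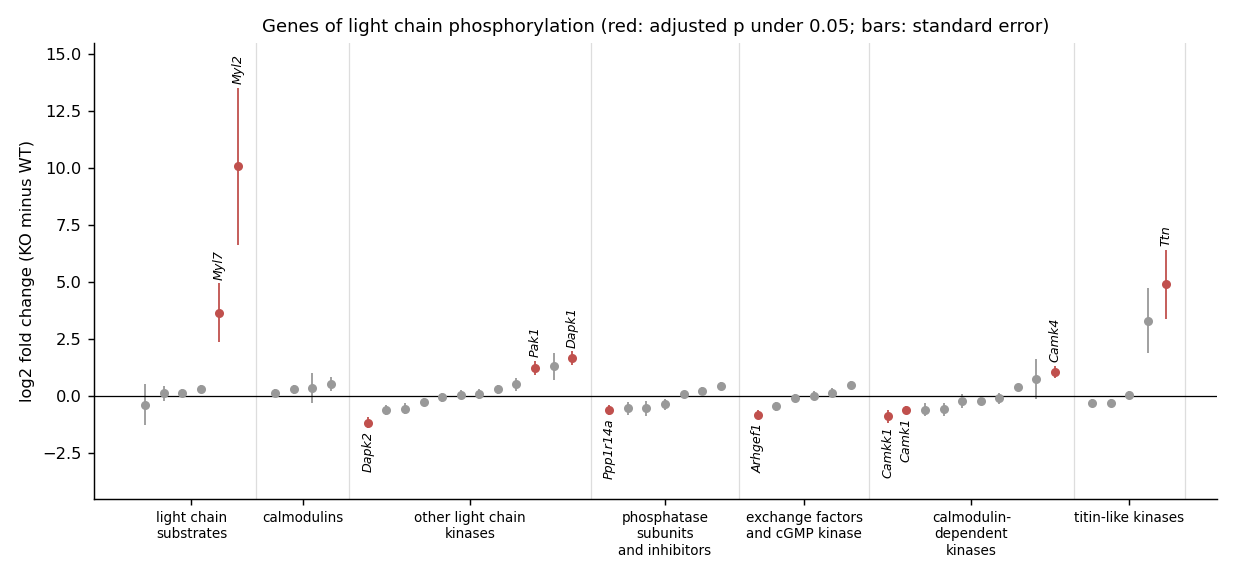
Log2 fold change of KO against WT (vertical axis, bars are standard errors) for the 50 tested genes of light chain phosphorylation, grouped by role. The 11 genes with an adjusted p-value under 0.05 are red and named. The largest values, Myl2, Ttn and Myl7, are striated muscle genes with wide errors, and the lowest is Dapk2 at -1.16.

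Windows of 250 bases before a RefSeq transcription start (GRCm38.p6) were listed for 3 members. The window of Mylk4, which fell, and a window of Mylk3 are shown because no M21 exon of their own gene overlaps them. They were searched on both strands for the E-box (letters CANNTG), for the letters CAGAC, for the GATA site (letters GATAAG), for the CArG box and for the MEF2 site in a strict and a looser form, and capitals mark each match. Those of Mylk4 at chr13:32783965-32784214 (- strand) and of Mylk3 at chr8:85381042-85381291 (- strand) read as follows.
Mylk4: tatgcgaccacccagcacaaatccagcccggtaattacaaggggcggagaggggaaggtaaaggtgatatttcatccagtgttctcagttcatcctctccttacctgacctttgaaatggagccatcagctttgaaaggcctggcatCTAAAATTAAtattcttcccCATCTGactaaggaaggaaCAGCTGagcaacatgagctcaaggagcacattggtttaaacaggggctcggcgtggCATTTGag
Mylk3: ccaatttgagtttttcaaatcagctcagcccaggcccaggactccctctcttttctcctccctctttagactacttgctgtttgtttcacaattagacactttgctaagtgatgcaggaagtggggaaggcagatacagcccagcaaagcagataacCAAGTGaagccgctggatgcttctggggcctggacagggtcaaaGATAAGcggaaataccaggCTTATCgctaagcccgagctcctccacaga
In the Mylk4 window 3 E-boxes began 83, 64 and 8 bases before the start. In the Mylk3 window an E-box began 93 bases before it, and GATA sites began 49 and 30 bases before it. That window lay inside the M21 span of Mylk3, which reaches to 85386345. The other Mylk3 window, at chr8:85365325-85365574, overlapped 23 exonic bases of the gene and held neither an E-box nor a GATA site. The letters CAGAC matched once there, 188 bases before its start, and once in the window of Mylk, 246 bases before the start. They had no match in the 2 windows shown. Of 32851 windows of that length in the table, 66.2% held an E-box, 42.2% held the letters CAGAC and 6.55% held a GATA site. The CArG box (1.47% of windows) and the strict form of the MEF2 site, with C first and G last (0.508%), had no match in the 4 windows of the family. The looser form, with either pyrimidine first and either purine last, was added after the windows had been seen. It matched once in the Mylk4 window, 103 bases before the start, and was held by 2.92% of all windows.

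The genes whose levels followed those of each member most closely were ranked by Pearson's r of log2(normalised count + 0.5) over the 6 libraries among 15510 genes, as a description. For Mylk2 and Mylk4 a high r contains the distance between the groups, so genes with a large fall and little scatter rank high. Mylk4 was followed by Fibin (0.998), a secreted protein gene first described in fin buds, with 4930417O22Rik, Tmem198, Gm12992 and Zfp970 after it. Fibin had 6785 to 8425 normalised counts in WT and 2255 and 1731 in KO. Zfp970 had 160.4 to 264.2 in WT and was at 0 in both KO libraries. Mylk2 was followed by Snora33 (0.998), a small nucleolar RNA gene, Gm14322, Agtrap, Ltbp3 and Tmbim1. Ltbp3, a latent TGF-β binding protein, had 13580 to 15800 in WT and 7383 and 7620 in KO. Gm14322 had 25.06 to 53.88 in WT and was also at 0 in both KO libraries. Between Mylk2 and Mylk4 r was 0.96, which placed Mylk4 200th for Mylk2 and Mylk2 182nd for Mylk4 among the 15510 genes.

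Mylk3 was followed by Cfhr2, Cox6a2, Arl13b, Taf9 and Igsf1. Cox6a2, the striated muscle form of a respiratory chain subunit, followed it at r = 0.984, with 16.48, 0, 16.98 and 13.57 normalised counts in WT and 248.9 and 68.83 in KO, so that it too was at 0 in WT-2. Mylk was followed by Anp32a (0.997), Nusap1, Crb2, Pcp4l1 and Mrps35, in all of which KO-2 was the highest library. None of these ranks was tested.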

How the data were processed

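Thoracic aortas were sequenced in bulk. The authors trimmed reads, aligned them with HISAT2 to GRCm38 (mm10) and assembled and counted them with StringTie against GENCODE, and the deposited table holds estimated counts per gene, whole numbers not scaled for depth. How StringTie coverage became counts, and whether strand was used, is not given in the sources used here. Table columns were matched to libraries by the group and number in their codes, which is an inference. Members and gene lists were chosen with earlier results of these data known.

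Groups were compared with the DESeq2 1.42.0 Wald test (R 4.3.3) on all 6 libraries, after the study's methods. edgeR 4.0.16, other scalings and filters, the replicate number as a block and each library left out were the 14 alternatives. Single values were tested by exact permutation over libraries. The fits across genes were checked on simulated data. Of 52636 gene IDs, 52489 matched GENCODE M21, which gave positions and lengths. Total counts of 19650983 to 28860598 limit precision for low counts such as Mylk3. Named were all members, the lists' genes past the adjusted p-value with Myl9, Ppp1r12a, Ppp1r14a, Rock1, Rock2 and Dapk3, the 5 genes most like each member with mean normalised counts of 10 or more, genes overlapping or starting within 200 kb of a member, and cell type markers. A gene that this rule also covers is not reported here.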

Additional observations from a re-analysis of the deposited data

Results flagged for a closer look

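The summed SMC markers stood apart in 1 WT library. WT-3 had 1069000 normalised counts whereas the 3 others ranged from 910500 to 934800. The gap was 0.847 of the whole range, above Dixon's critical value for 4 samples. Of 34 values checked in the WT libraries this was the 1 found, and chance gives about 1.7. WT-3 also had the highest Mylk count among the WT libraries, 69160, and Mylk per 1000 SMC marker counts was 64.7 there, against 64.9 to 67.1 in the others.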

How the results depend on the processing

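The log2 fold changes of Mylk2 and Mylk4 kept their direction and stayed past the threshold in all 14 alternatives. That of Mylk lay between 0.11 and 0.47 with 1 library left out, and that of Mylk3 between 1.60 and 4.83. Mylk3 also passed in edgeR without a filter (4.0, adjusted p-value 0.0489). The 2 log2 ratios and the family level kept their direction in all alternatives run, but in a design of 4 against 2 no exact test could reach 0.05. Of all genes, 962 were called, against 633 in edgeR with a filter, 114 in DESeq2 against a 2-fold change and 636 to 1284 with 1 library left out. The share of calls that were higher was 62.8%, and 48.1% without KO-2. Of the light chain phosphorylation genes, 11 passed, against 6 in edgeR with and without a filter, 0 in DESeq2 against a 2-fold change (4 at an unadjusted p-value under 0.05) and 7 to 14 with 1 library left out. The count was 7 without WT-2 and without WT-3, of which in each case all 7 were among the 11, and 14 without KO-1, of which 7 were. The causes of these shifts were not tested.

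WT and KO libraries share the numbers 1 and 2 only as names. With the replicate number as a block, where WT-3 and WT-4 have no partner, 561 genes were called, 5 light chain phosphorylation genes passed, and Mylk3 passed with a log2 fold change of 4.71 (adjusted p-value 0.00022). The block changed no call on the other 3 members.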

Other observations

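Genes near the kinases were compared with them. Among genes that overlapped a member or started within 200 kb of it, and whose mean normalised count reached 10, 4 lay near Mylk, 8 near Mylk2, 5 near Mylk3 and 4 near Mylk4. Near Mylk, Adcy5, an adenylyl cyclase gene that starts 152457 bases from it, fell from 28860 to 32300 normalised counts in WT to 20020 and 14800 in KO, by 0.81 on the log2 scale (DESeq2 adjusted p-value 0.000156). None of the genes near the other 3 members passed the adjusted p-value in DESeq2 or edgeR, and in DESeq2 1 of them, Serpinb1c near Mylk4, had an unadjusted p-value under 0.05. Near Mylk2 the log2 fold changes ran from -0.11 to 0.53. The 3 genes annotated inside members (1700119H24Rik in Mylk, AA672651 in Mylk3 and Gm27342 in Mylk4) had 0 counts in all 6 libraries, and none overlapped Mylk2.

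Of the stretches of 50 exonic bases, 4.56% of those of Mylk and 0.837% of those of Mylk4 also occur in the exons of genes outside the family, against 0 for Mylk2 and Mylk3.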
